A study of Mus musculus with 10 samples.

Results

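The genes described here are the mouse major histocompatibility complex (MHC) genes and the genes that supply and load peptides for them, read in the jejunum of mice with and without NDI1 in the intestinal epithelium. They were chosen by symbol: every gene whose name begins with H2-, leaving out 3 symbols marked as pseudogenes, together with B2m, Cd74, Ciita, Nlrc5, Tap1, Tap2, Tapbp, Psmb8, Psmb9, Psmb10 and Cd1d1. This gave 52 of the 45707 rows in the table, 41 by their H2- symbol and 11 by name, and 46 of the 52 lie on chromosome 17. NDI1 is a yeast enzyme that oxidizes NADH in mitochondria and can do the work of complex I there. The study asked, among other questions, whether NDI1 itself alters the intestinal transcriptome. Vil-Cre mice carry Cre recombinase under the villin promoter, which is active in the intestinal epithelium. Vil-Cre:NDI1 mice carry the same Cre and also NDI1 behind a lox-stop-lox sequence at ROSA26, so that Cre releases it in epithelial cells, while the RNA came from whole pieces of jejunum with their immune and stromal cells. Both groups were male littermates aged 8 to 12 weeks, fed standard chow, fasted overnight for 16 to 18 h and given water by gavage 1 h before collection. There were 5 mice and 5 libraries per genotype, and the labels name no batch or date.

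MHC class I molecules are made of a heavy chain and the light chain beta-2-microglobulin, and nearly all nucleated cells show them. Proteasomes cut cytosolic proteins into peptides, the TAP transporter carries these into the endoplasmic reticulum, and tapasin helps to load them onto class I. MHC class II molecules are pairs of an alpha and a beta chain that present peptides from endosomes, guarded by the invariant chain until H2-DM exchanges it for a peptide. B cells, dendritic cells and macrophages carry class II at all times, and enterocytes of the small intestine can make it too. CIITA and NLRC5 are the transactivators of class II and class I genes, respectively, and act through factors bound to the gene promoters.

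NDI1 itself was at 0, 0, 1.00, 0 and 0 normalized counts in Vil-Cre mice 1 to 5 and at 982, 1371, 2575, 1394 and 1511 in Vil-Cre:NDI1 mice 1 to 5, so every library matched its label. A normalized count is the number of reads on a gene divided by 1 factor per library that evens out sequencing depth, and 1 read was worth 0.911 to 1.17 normalized counts. Each library held 10145705 to 12371530 reads on genes. All 11 enterocyte markers on the list used here passed the filter, and their summed level was 389623 to 615738 in Vil-Cre and 564649 to 741103 in Vil-Cre:NDI1 jejunum, lowest in Vil-Cre 5. All 11 had log2 fold changes above 0, and 0 passed the test used below. Vil-Cre 5 stood apart: the summed level of 7 B cell markers was 1747 there and 20.3 to 95.1 in the other 9 mice. Results below are therefore also given without that mouse where it decides them.

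The upstream sequences of both classes are shown first as a description. Their part in the spread of these genes between mice was not tested. Sequence was found for 37 of the 52 members in RefSeq's table on GRCm38.p6. H2-Ab1, Cd74, Ciita and Nlrc5 were among the members without it. The stretch from 180 to 6 bases before the transcription start is printed 5′ to 3′ for 3 class II genes, H2-Aa (alpha chain of H2-A), H2-Eb1 (beta chain of H2-E) and H2-Ob (beta chain of H2-O), and for 2 class I genes, H2-K1 (a classical heavy chain) and B2m (the light chain). Capitals mark ATTGG or CCAAT (the Y box letters that NF-Y binds), GCAAC (part of the X box that the RFX complex binds), TGACG or CGTCA (letters of a cyclic AMP response element) and TTTCACT (part of an interferon-response element). All 4 were searched on both strands, and in H2-Aa the letters TGACG and CGTCA overlap.
H2-Aa, chr17:34287829-34288003, minus strand: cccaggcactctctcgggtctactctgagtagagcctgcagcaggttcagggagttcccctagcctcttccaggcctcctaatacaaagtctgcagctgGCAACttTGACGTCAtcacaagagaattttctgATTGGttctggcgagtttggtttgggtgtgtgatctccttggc
H2-Eb1, chr17:34305687-34305861, plus strand: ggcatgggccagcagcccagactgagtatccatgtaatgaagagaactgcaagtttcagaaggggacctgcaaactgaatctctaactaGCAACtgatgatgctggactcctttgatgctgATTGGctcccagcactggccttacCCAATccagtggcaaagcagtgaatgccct
H2-Ob, chr17:34238725-34238899, plus strand: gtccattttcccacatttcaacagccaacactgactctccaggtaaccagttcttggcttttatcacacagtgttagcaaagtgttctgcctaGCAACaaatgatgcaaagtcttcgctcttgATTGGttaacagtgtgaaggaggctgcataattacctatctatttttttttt
H2-K1, chr17:34000353-34000527, minus strand: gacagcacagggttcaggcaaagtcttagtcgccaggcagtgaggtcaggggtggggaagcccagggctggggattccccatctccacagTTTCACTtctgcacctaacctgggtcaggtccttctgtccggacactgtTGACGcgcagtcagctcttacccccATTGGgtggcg
B2m, chr2:122147507-122147681, plus strand: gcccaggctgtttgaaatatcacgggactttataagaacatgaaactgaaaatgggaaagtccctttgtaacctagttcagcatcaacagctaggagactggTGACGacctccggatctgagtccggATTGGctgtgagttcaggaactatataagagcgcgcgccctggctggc

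ATTGG in either direction was in 7 of 8 class II windows and in 20 of 23 windows of class I chains, against 27.1% of all 32851 promoter windows of that length. GCAAC was in 5 of the 8 class II windows, 1 of the 23 class I windows and 22.5% of all windows. In H2-Aa, H2-Eb1, H2-Eb2, H2-Ob and H2-Oa, GCAAC stood 30 to 33 bases before ATTGG on the same strand. That order with 20 to 45 bases between the first letters, a range set with these sequences in view, was in 0.408% of all windows and in no other of the 37 members. TTTCACT was in 8 of the 23 class I windows, in 0 of the 8 class II windows and in 2.42% of all windows. TGACG was in 11 of the 23 class I windows, 1 of the 8 class II windows and 14.4% of all windows. Many of these genes are copies of one another, so their windows are not independent, and a match of letters is a description and not a binding site.

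No member differed between genotypes past the threshold. Of the 52 members, 37 reached 10 normalized counts in 5 or more libraries and were tested with limma on log2(normalized count + 1), and 0 of the 37 had an adjusted p under 0.05. Among all 14301 genes tested, 0.00699% passed, which is NDI1 alone. At an unadjusted p under 0.05 stood 1 of the 37 members, Cd1d1, beside 4.24% of all genes. The values of the 5 Vil-Cre and the 5 Vil-Cre:NDI1 mice overlapped in all 37 members, and did not overlap in 0.699% of all genes tested. DESeq2 on the whole reads recovered from the table called 0 of 44 members, beside 0.118% of 26289 genes. It had 2 of the 44 at an unadjusted p under 0.05, beside 4.78% of genes. The 44 and 26289 count every gene in the fit. H2-Ob was among them without an adjusted p, so DESeq2 could not call it. On the same reads edgeR called 0 of 37 members, beside 0.00699% of genes, and had 3 at an unadjusted p under 0.05, beside 4.66%.

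The median log2 fold change of the 37 members, Vil-Cre:NDI1 over Vil-Cre, was -0.09, with 23 of 37 below 0, beside a median of 0.01 over all genes tested. It turned above 0 when any of 3 mice was left out: 0.07 without Vil-Cre 5 (9 of 37 below 0), 0.04 without Vil-Cre:NDI1 2 (14 below 0) and 0.02 without Vil-Cre:NDI1 5 (16 below 0). A change of more than 2-fold, up or down, was outside the 95% interval for 22 of 26 members of the class I side and for 0 of 8 of the class II side, as against 79.6% of all genes. The data thus bound a genotype difference in most class I genes and leave a wide range for class II.

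**Figure D1:**
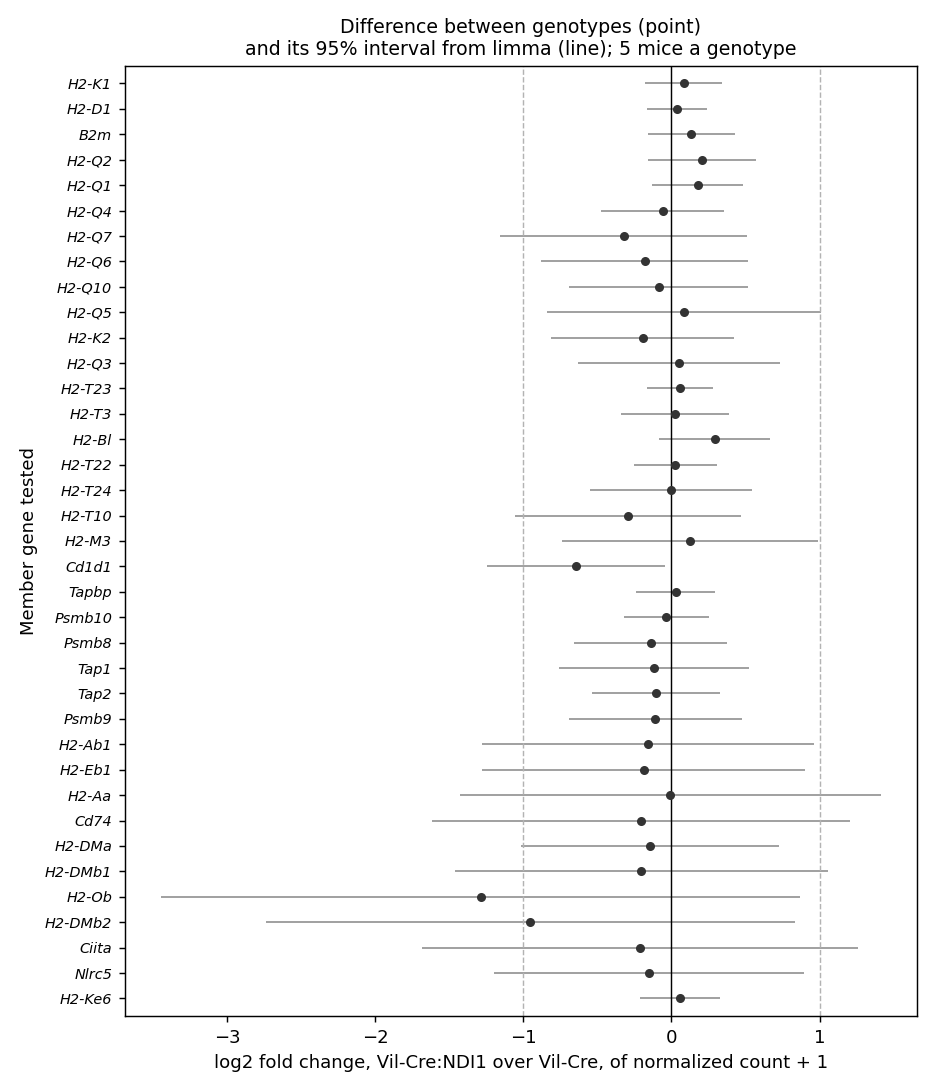
Log2 fold change of the normalized count + 1, Vil-Cre:NDI1 over Vil-Cre, for the 37 members tested, with points for the estimate and lines for the 95% interval from limma over 5 mice per genotype. Dashed lines mark 2-fold in either direction. The intervals of the classical class I genes are short, those of the class II genes cross both dashed lines or one of them, and Cd1d1 alone has an interval that leaves out 0.

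The classical class I heavy chains and their light chain were among the members with the highest levels. The heavy chains varied little between mice. H2-K1 (ENSMUSG00000061232, chr17:33996017-34000347, minus strand, with this and later positions on GRCm38) was at 12985, 12667, 17385, 18587 and 14521 normalized counts in Vil-Cre mice 1 to 5 and 16509, 14635, 16442, 16194 and 15952 in Vil-Cre:NDI1 mice 1 to 5. H2-D1 (chr17:35262730-35267499) was at 8984, 9759, 10311, 11373 and 11346 normalized counts in Vil-Cre mice 1 to 5 and 10522, 9723, 10226, 11592 and 11034 in Vil-Cre:NDI1 mice 1 to 5. Both genes stayed within a narrow band in all 10 mice, with a highest value 1.47 times the lowest for H2-K1 and 1.29 times for H2-D1, and the groups overlapped. H2-K1 averaged 15229 ± 2647 (SD, n = 5) in Vil-Cre and 15946 ± 766 (SD, n = 5) in Vil-Cre:NDI1 jejunum, a log2 fold change of 0.08 (SE 0.12, 95% interval -0.18 to 0.34, limma p = 0.506, adjusted p = 0.998, exact permutation p = 0.476). H2-D1 averaged 10355 ± 1031 (SD, n = 5) in Vil-Cre and 10619 ± 722 (SD, n = 5) in Vil-Cre:NDI1 jejunum, a log2 fold change of 0.04 (SE 0.09, 95% interval -0.16 to 0.24, limma p = 0.678, adjusted p = 0.998, exact permutation p = 0.635).

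B2m, the light chain shared by all these heavy chains (chr2:122147686-122153083), was at 8648, 8475, 10426, 13953 and 9570 normalized counts in Vil-Cre mice 1 to 5 and 11834, 9844, 11110, 11668 and 10800 in Vil-Cre:NDI1 mice 1 to 5. Vil-Cre 4 was the highest and Vil-Cre 2 the lowest, and the groups overlapped. It averaged 10215 ± 2231 (SD, n = 5) in Vil-Cre and 11051 ± 793 (SD, n = 5) in Vil-Cre:NDI1 jejunum, and its log2 fold change was 0.14 (SE 0.13, 95% interval -0.16 to 0.43, limma p = 0.331, adjusted p = 0.998, exact permutation p = 0.349). A setting chosen after seeing the data left out Vil-Cre 3 and 4, and Vil-Cre 4 had the highest B2m. DESeq2 called B2m there at a log2 fold change of 0.31 (adjusted p = 0.0339). It called 2 of 44 members there, beside 1.08% of 25653 genes, and edgeR called 0 of 37. H2-Ob was among the 44 without an adjusted p. At an unadjusted p under 0.05 stood 8 of 44 members in DESeq2, beside 8.07% of genes, and 8 of 37 in edgeR, beside 8.74%. Across the 10 mice H2-K1 and B2m followed each other, with Pearson's r = 0.92 (permutation p = 0.00017, adjusted over 12 pairs p = 0.00102) and Spearman's rho = 0.87 (permutation p = 0.00217, adjusted p = 0.00924). Without the 2 mice farthest from the median of H2-K1, r was 0.83.

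Per kilobase of exon, B2m stood highest of all members at 12364 normalized counts, followed by H2-K1 at 5306, H2-Q2 at 4103 and H2-D1 at 4066. The order was the same per kilobase of the principal transcript, while H2-Q2 and H2-D1 were nearly level per kilobase of exon. The class I side as a whole, 37 genes, took 0.501% to 0.717% of a library, and its summed level ranged from 55581 to 79432 normalized counts in Vil-Cre and from 64377 to 72894 in Vil-Cre:NDI1 jejunum.

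**Figure D2:**
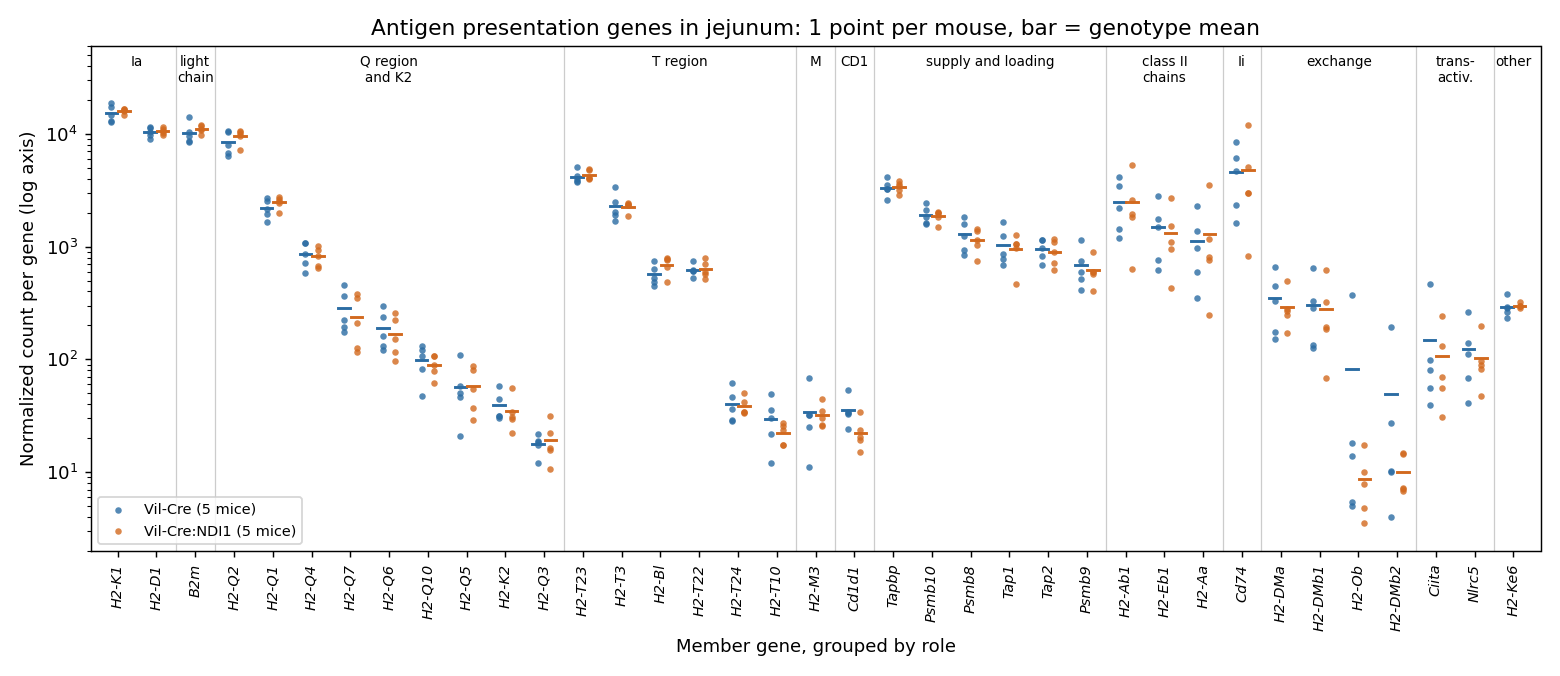
Normalized count on a log axis for the 37 members tested, grouped by role, with 1 point per mouse and a bar at the mean of each genotype (n = 5). Ia stands for the classical class I heavy chains and Ii for the invariant chain. The points of H2-K1, H2-D1, B2m and H2-T23 lie close together, those of the class II genes and Ciita spread widely within each genotype, and a single Vil-Cre mouse lies far above the rest for H2-Ob and H2-DMb2.

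Nonclassical class I genes of the Q region were led by H2-Q2 and H2-Q1. H2-Q2 was at 7943, 6715, 10545, 10266 and 6369 normalized counts in Vil-Cre mice 1 to 5 and 10611, 9596, 10286, 7109 and 10036 in Vil-Cre:NDI1 mice 1 to 5. H2-Q1 was at 2167, 1948, 2679, 2539 and 1647 normalized counts in Vil-Cre mice 1 to 5 and 2727, 2424, 2520, 1971 and 2659 in Vil-Cre:NDI1 mice 1 to 5. Both were lowest in Vil-Cre 5 and highest in Vil-Cre:NDI1 1, and the groups overlapped in both. H2-Q2 averaged 8368 ± 1953 (SD, n = 5) in Vil-Cre and 9528 ± 1402 (SD, n = 5) in Vil-Cre:NDI1 jejunum, a log2 fold change of 0.20 (SE 0.17, 95% interval -0.16 to 0.57, limma p = 0.244, adjusted p = 0.998, exact permutation p = 0.302). H2-Q1 averaged 2196 ± 423 (SD, n = 5) in Vil-Cre and 2460 ± 298 (SD, n = 5) in Vil-Cre:NDI1 jejunum, a log2 fold change of 0.18 (SE 0.14, 95% interval -0.13 to 0.48, limma p = 0.229, adjusted p = 0.998, exact permutation p = 0.302). The ratio of H2-Q2 to H2-Q1 stayed between 3.45 and 4.08 in all 10 mice. The pair shares some sequence: 5.09% of the 100-base windows of H2-Q2 occur in H2-Q1, so a few of their reads could have been split between them.

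The other 6 Q region genes were lower, as was H2-K2, which lies beside H2-K1 and is annotated as a transcribed pseudogene. None of these had a log2 fold change outside -0.32 to 0.09. H2-Q4 averaged 864 and 819 normalized counts in Vil-Cre and Vil-Cre:NDI1 jejunum. H2-Q6 and H2-Q7, which encode Qa-2 molecules, averaged 191 and 169 and 283 and 237 in the same order. H2-Q10, known as a secreted class I chain of the liver, averaged 97.9 and 88.6. Means were 57.1 and 58.1 for H2-Q5, 39.3 and 34.7 for H2-K2 and 17.8 and 19.4 for H2-Q3. H2-Q5 is annotated as a polymorphic pseudogene and H2-Q3 as an unprocessed pseudogene. H2-Q5, H2-Q6 and H2-Q7 share 10.8% to 14.01% of their 100-base windows with other genes, so their reads may have been assigned to one another.

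In the T region, H2-T23 and H2-T3 were the most abundant per kilobase. H2-T23 encodes Qa-1, which presents leader peptides of other class I chains to NK and CD8 T cell receptors. H2-T23 was at 3768, 3956, 4238, 5029 and 3809 normalized counts in Vil-Cre mice 1 to 5 and 4757, 4033, 4828, 3972 and 4019 in Vil-Cre:NDI1 mice 1 to 5. H2-T3, which encodes the TL antigen of small intestinal epithelium and binds CD8 alpha homodimers, was at 1895, 2020, 2471, 3344 and 1681 normalized counts in Vil-Cre mice 1 to 5 and 2453, 2320, 2317, 1849 and 2370 in Vil-Cre:NDI1 mice 1 to 5. H2-T23 kept within 1.33 times its lowest value over the 10 mice, whereas H2-T3 was lowest in Vil-Cre 5 and highest in Vil-Cre 4, and the groups overlapped in both. H2-T23 averaged 4160 ± 519.6 (SD, n = 5) in Vil-Cre and 4322 ± 431 (SD, n = 5) in Vil-Cre:NDI1 jejunum, a log2 fold change of 0.06 (SE 0.10, 95% interval -0.16 to 0.28, limma p = 0.579, adjusted p = 0.998, exact permutation p = 0.556). H2-T3 averaged 2282 ± 659.9 (SD, n = 5) in Vil-Cre and 2262 ± 237 (SD, n = 5) in Vil-Cre:NDI1 jejunum, a log2 fold change of 0.02 (SE 0.17, 95% interval -0.34 to 0.39, limma p = 0.889, adjusted p = 0.998, exact permutation p = 0.944).

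H2-Bl, like H2-T10 annotated as a polymorphic pseudogene, had the second smallest p of the members. It was at 444, 483, 742, 635 and 531 normalized counts in Vil-Cre mice 1 to 5 and 758, 777, 795, 481 and 656 in Vil-Cre:NDI1 mice 1 to 5. The groups overlapped, with Vil-Cre:NDI1 3 the highest and Vil-Cre 1 the lowest. It averaged 567 ± 121 (SD, n = 5) in Vil-Cre and 693 ± 130.4 (SD, n = 5) in Vil-Cre:NDI1 jejunum, and the log2 fold change was 0.29 (SE 0.17, 95% interval -0.08 to 0.67, limma p = 0.114, adjusted p = 0.998, exact permutation p = 0.151). H2-T22 and H2-T10, ligands of some gamma delta T cell receptors, averaged 622 and 637 and 29.9 and 22.3 in Vil-Cre and Vil-Cre:NDI1 jejunum, and H2-T24 averaged 40.3 and 38.9. Exons on the opposite strand overlap 29.4% of H2-T22 and 27.1% of H2-T10, and the strand setting of the counting is not stated.

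Of the 12 M region genes only H2-M3, which presents peptides that begin with N-formylmethionine, was tested. It was at 11.2, 25.2, 32.1, 32.4 and 68.96 normalized counts in Vil-Cre mice 1 to 5 and 30.4, 26.4, 34.9, 45.05 and 25.8 in Vil-Cre:NDI1 mice 1 to 5. Vil-Cre 5 was the highest mouse and Vil-Cre 1 the lowest, both of the same genotype, and the groups overlapped. Its means were 33.95 ± 21.4 (SD, n = 5) in Vil-Cre and 32.5 ± 7.89 (SD, n = 5) in Vil-Cre:NDI1 jejunum, a log2 fold change of 0.13 (SE 0.39, 95% interval -0.74 to 0.99, limma p = 0.756, adjusted p = 0.998, exact permutation p = 0.77).

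Cd1d1, a class I-like molecule that presents lipids to NKT cells (ENSMUSG00000028076, chr3:86995834-86999441), had the smallest p of the members. It was at 24.3, 32.8, 34.1, 33.4 and 53.4 normalized counts in Vil-Cre mice 1 to 5 and 23.5, 19.1, 33.9, 20.6 and 15.3 in Vil-Cre:NDI1 mice 1 to 5. All 5 Vil-Cre:NDI1 values lay below the 2 highest Vil-Cre values, but Vil-Cre:NDI1 3 stood above 3 of the 5 Vil-Cre mice, so the groups overlapped. It averaged 35.6 ± 10.7 (SD, n = 5) in Vil-Cre and 22.5 ± 7.04 (SD, n = 5) in Vil-Cre:NDI1 jejunum, with a log2 fold change of -0.64 (SE 0.27, 95% interval -1.24 to -0.04, limma p = 0.0378, adjusted p = 0.998, exact permutation p = 0.0317). The difference did not pass the correction over 14301 tests. The gene had 292 reads over the 10 libraries, and leaving out Vil-Cre 5 gave -0.49 on the log2 scale. It shares 10.49% of its 100-base windows with its copy Cd1d2, so reads of the 2 may have been mixed.

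Genes of the peptide supply were all tested, and none differed. Tapbp, which encodes tapasin, was at 2602, 3208, 3484, 4122 and 3260 normalized counts in Vil-Cre mice 1 to 5 and 3611, 3791, 3447, 2862 and 3187 in Vil-Cre:NDI1 mice 1 to 5. Psmb10, an immunoproteasome subunit, was at 1621, 1582, 1825, 2092 and 2416 normalized counts in Vil-Cre mice 1 to 5 and 1973, 2010, 1969, 1815 and 1485 in Vil-Cre:NDI1 mice 1 to 5. Tapbp was lowest in Vil-Cre 1 and highest in Vil-Cre 4, Psmb10 was lowest in Vil-Cre:NDI1 5 and highest in Vil-Cre 5, and the groups overlapped in both. Tapbp averaged 3335 ± 548 (SD, n = 5) in Vil-Cre and 3380 ± 365 (SD, n = 5) in Vil-Cre:NDI1 jejunum, a log2 fold change of 0.03 (SE 0.12, 95% interval -0.24 to 0.29, limma p = 0.823, adjusted p = 0.998, exact permutation p = 0.825). Psmb10 averaged 1907 ± 349 (SD, n = 5) in Vil-Cre and 1850 ± 218 (SD, n = 5) in Vil-Cre:NDI1 jejunum, a log2 fold change of -0.03 (SE 0.13, 95% interval -0.32 to 0.25, limma p = 0.799, adjusted p = 0.998, exact permutation p = 0.817).

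The other immunoproteasome subunits and the TAP transporter varied more. Psmb8 averaged 1285 and 1147 normalized counts in Vil-Cre and Vil-Cre:NDI1 jejunum, and Psmb9 averaged 686 and 616. Tap1 averaged 1043 and 957 and Tap2 955 and 898. All 4 had log2 fold changes between -0.14 and -0.10, smaller than the spread between mice of a genotype. Psmb8, Psmb9 and Tap1 were highest in Vil-Cre 5, at 1825, 1150 and 1653. Tap2 was highest in Vil-Cre:NDI1 3, and all 4 genes were lowest in Vil-Cre:NDI1 5. The ratio of an immunoproteasome subunit to the constitutive subunit that it replaces is a description of the same spread. Psmb8 over Psmb5 ranged from 1.12 to 2.79 over the 10 mice, Psmb9 over Psmb6 from 0.398 to 1.25 and Psmb10 over Psmb7 from 1.84 to 2.84. The constitutive Psmb5, Psmb6 and Psmb7 had standard deviations around their genotype means of 0.05 to 0.17 on the log2 scale, and Psmb8, Psmb9 and Psmb10 of 0.22 to 0.49.

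Class II genes showed a wide and shared spread between mice of the same genotype. H2-Ab1 (ENSMUSG00000073421, chr17:34257689-34269419), the beta chain of H2-A, was at 2192, 1440, 1187, 3431 and 4173 normalized counts in Vil-Cre mice 1 to 5 and 1811, 632, 2606, 5327 and 1949 in Vil-Cre:NDI1 mice 1 to 5. H2-Aa (chr17:34282744-34287823, minus strand), its alpha chain, was at 981, 589.8, 354, 1365 and 2311 normalized counts in Vil-Cre mice 1 to 5 and 764, 248, 1169, 3500 and 808 in Vil-Cre:NDI1 mice 1 to 5. In both, Vil-Cre:NDI1 2 was the lowest and Vil-Cre:NDI1 4 the highest of all 10 mice, so 1 genotype held both extremes. The 10 mice fell in the same order for the 2 genes, with r = 0.98 (permutation p = 1e-05, adjusted over 12 pairs p = 0.00012) and rho = 1 (permutation p = 1e-05, the smallest that 100000 resamples can give). Without the 2 mice farthest from the median of H2-Aa, r was still 0.98.

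H2-Ab1 averaged 2485 ± 1285 (SD, n = 5) in Vil-Cre and 2465 ± 1751 (SD, n = 5) in Vil-Cre:NDI1 jejunum, a log2 fold change of -0.16 (SE 0.51, 95% interval -1.28 to 0.96, limma p = 0.762, adjusted p = 0.998, exact permutation p = 0.81). H2-Eb1 (chr17:34305867-34316674), the beta chain of H2-E, was at 1485, 754, 623, 1754 and 2819 normalized counts in Vil-Cre mice 1 to 5 and 1103, 426, 1519, 2670 and 944 in Vil-Cre:NDI1 mice 1 to 5. It was lowest in Vil-Cre:NDI1 2 and highest in Vil-Cre 5, with Vil-Cre:NDI1 4 next, and the groups overlapped. It averaged 1487 ± 885 (SD, n = 5) in Vil-Cre and 1332 ± 844 (SD, n = 5) in Vil-Cre:NDI1 jejunum, a log2 fold change of -0.19 (SE 0.50, 95% interval -1.28 to 0.90, limma p = 0.713, adjusted p = 0.998, exact permutation p = 0.746). H2-Aa averaged 1120 and 1298 in Vil-Cre and Vil-Cre:NDI1 jejunum, and its highest mouse was 14.1 times its lowest.

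Cd74 (ENSMUSG00000024610, on chromosome 18), the invariant chain, was at 4670, 2346, 1609, 6058 and 8374 normalized counts in Vil-Cre mice 1 to 5 and 2970, 818, 5080, 11877 and 2993 in Vil-Cre:NDI1 mice 1 to 5. It followed the same order at both ends, with Vil-Cre:NDI1 2 lowest, Vil-Cre 3 next, and Vil-Cre 5 and Vil-Cre:NDI1 4 highest. It averaged 4612 ± 2757 (SD, n = 5) in Vil-Cre and 4748 ± 4261 (SD, n = 5) in Vil-Cre:NDI1 jejunum, and the log2 fold change was -0.21 (SE 0.64, 95% interval -1.62 to 1.21, limma p = 0.756, adjusted p = 0.998, exact permutation p = 0.794). Cd74 went from 0.0831 to 1.02 times the level of B2m between the mice at the extremes. For the 12 class II side genes, the summed level was 4068 to 19702 normalized counts in Vil-Cre and 2382 to 24516 in Vil-Cre:NDI1 jejunum. That was 10.29 times from lowest to highest, as against 1.43 times for the sum of the class I side. Single tested genes of the class I side went from 1.29 times for H2-D1 to 3.94 for H2-Q7 and 6.15 for the low gene H2-M3. The narrowest tested gene of the class II side was H2-DMa at 4.31 times.

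The standard deviation around the genotype means, on the log2 scale, was 0.96 for H2-Ab1, 0.93 for H2-Eb1, 1.22 for H2-Aa and 1.21 for Cd74. It was 0.18 for H2-K1, 0.12 for H2-D1 and 0.22 for B2m. Among the 9121 genes with a mean of at least 100, the median was 0.21, and 0.789% of them spread more than H2-Aa, 0.811% more than Cd74 and 1.53% more than H2-Ab1. For H2-K1 that share was 61.4%, for H2-D1 84.8% and for B2m 48.6%. The correlation of H2-K1 and H2-Ab1 across mice did not pass (r = 0.23, permutation p = 0.527, rho = 0.09, permutation p = 0.81), and r was 0.19 without the 2 mice farthest from the median of H2-K1.

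**Figure D3:**
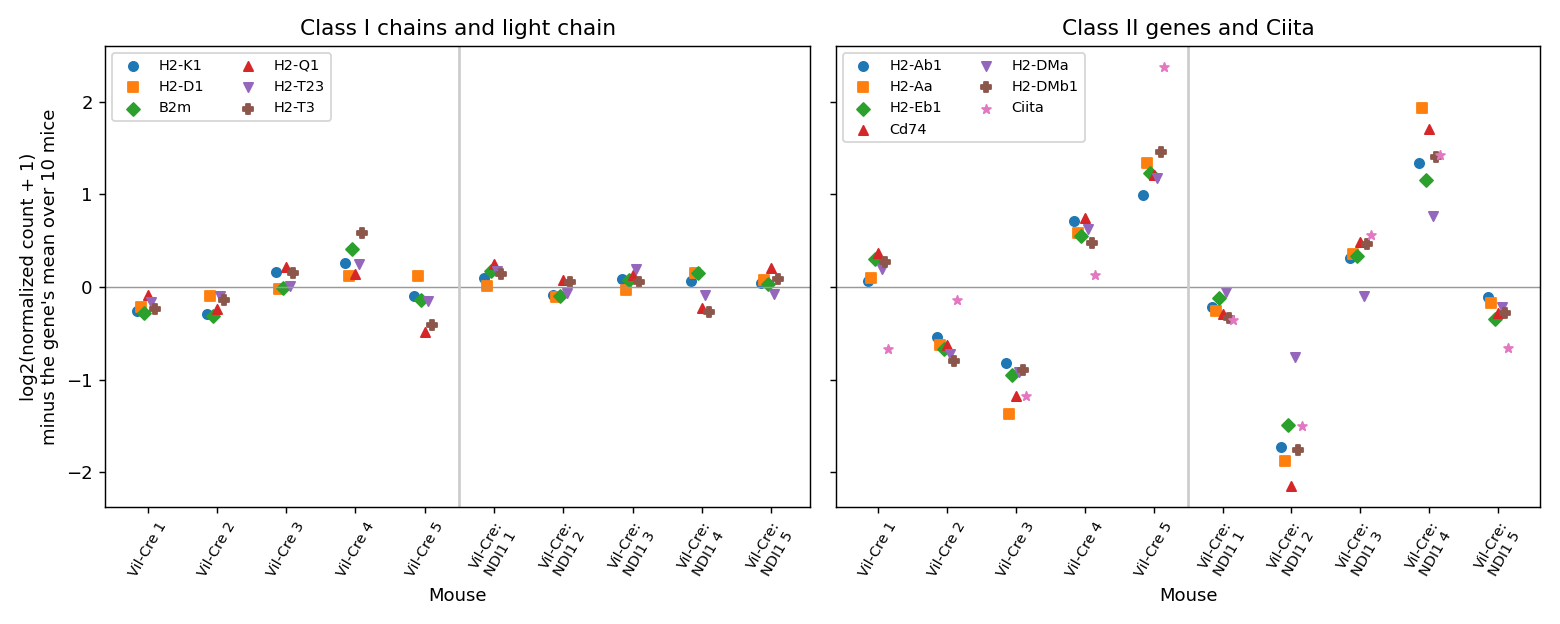
For each mouse (horizontal axis), the log2(normalized count + 1) of a gene minus its mean over the 10 mice, for 6 class I genes (left) and for 6 class II genes and Ciita (right) on 1 vertical scale. The class I points stay near 0 in all mice, and the class II points are low together in Vil-Cre:NDI1 2 and Vil-Cre 3 and high together in Vil-Cre 5 and Vil-Cre:NDI1 4.

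Markers of the cell types that carry class II were read in the same libraries. Dendritic cell markers, of which 3 of 8 passed the filter, summed to 87.2 to 206 in Vil-Cre and 63.9 to 161 in Vil-Cre:NDI1 jejunum, and Cd209a was at 0 in 3 mice. Macrophage markers, 8 of 9 passing, summed to 468 to 806 and to 315 to 927. T cell markers, all 10 passing, summed to 1116 to 3084 and to 629 to 2761. B cell markers, 2 of 7 passing, summed to 65.6 in Vil-Cre:NDI1 4, the mouse with the highest class II sum, and to 28.2 in Vil-Cre:NDI1 2, the mouse with the lowest. Macrophage and dendritic cell markers summed to 529 and 161 in Vil-Cre:NDI1 4 and to 315 and 93.8 in Vil-Cre:NDI1 2. In Vil-Cre:NDI1 1 they summed to 927 and 160 with a class II sum of 7144, and in Vil-Cre:NDI1 3 to 403 and 63.9 with a class II sum of 10990. Dendritic cell markers summed highest in Vil-Cre 5 at 206, though only 3 of the 8 were highest there. Vil-Cre:NDI1 4 and Vil-Cre:NDI1 1 came next and were nearly level, at 161 and 160. Vil-Cre 5 and Vil-Cre:NDI1 4 were the mice with the highest class II sums, 19702 and 24516. The part of these cells in the spread of class II was not tested, and in whole tissue fewer cells of a type and less RNA per cell cannot be told apart. Across mice H2-Ab1 had r = 0.55 with the B cell gene Cd79a (permutation p = 0.101, adjusted p = 0.174, rho = 0.54) and r = -0.08 with the enterocyte gene Vil1 (permutation p = 0.825, rho = -0.19). Without the 2 mice farthest from the median of Cd79a or Vil1, these r values were 0.60 and -0.17.

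Among the genes of peptide exchange, H2-DMb1 and H2-DMa encode the beta and alpha chains of H2-DM. H2-DMb1 was at 284, 135, 125, 327 and 646 normalized counts in Vil-Cre mice 1 to 5 and 185, 68.3, 324, 622 and 194 in Vil-Cre:NDI1 mice 1 to 5. H2-DMa was at 331, 174, 152, 445 and 656 normalized counts in Vil-Cre mice 1 to 5 and 277, 170.4, 270.1, 493 and 248 in Vil-Cre:NDI1 mice 1 to 5. Both were highest in Vil-Cre 5 and second highest in Vil-Cre:NDI1 4, and Vil-Cre:NDI1 2 and Vil-Cre 3 held the 2 lowest values of both. H2-DMb1 averaged 303 ± 211 (SD, n = 5) in Vil-Cre and 279 ± 212 (SD, n = 5) in Vil-Cre:NDI1 jejunum, a log2 fold change of -0.20 (SE 0.57, 95% interval -1.46 to 1.06, limma p = 0.729, adjusted p = 0.998, exact permutation p = 0.754). H2-DMa averaged 352 ± 208 (SD, n = 5) in Vil-Cre and 292 ± 120.1 (SD, n = 5) in Vil-Cre:NDI1 jejunum, a log2 fold change of -0.14 (SE 0.40, 95% interval -1.01 to 0.73, limma p = 0.726, adjusted p = 0.998, exact permutation p = 0.754).

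The 8 class II genes tested all had log2 fold changes below 0, from -1.29 to -0.01, and in the DESeq2 and edgeR fits on recovered reads H2-Aa and Cd74 were above 0. In those fits the 8 ranged from -3.24 to 0.21 with DESeq2 and from -3.23 to 0.20 with edgeR. Without Vil-Cre 5, 6 of the 8 were above 0, and likewise without Vil-Cre:NDI1 2, so the direction rests on single mice. None of the 8 intervals lay within 2-fold, and no genotype difference of class II was detectable at this spread.

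The H2-O chains, which inhibit H2-DM and are known from B cells, and H2-DMb2, a second H2-DM beta chain, were high in 1 mouse only. H2-Ob was at 14.02, 5.47, 5.01, 18.2 and 371 normalized counts in Vil-Cre mice 1 to 5 and 7.84, 10.02, 4.84, 17.6 and 3.52 in Vil-Cre:NDI1 mice 1 to 5. Its value in Vil-Cre 5 was 20.4 times the highest of the other 9 mice, and these 9 overlapped between genotypes. H2-Ob averaged 82.7 ± 161 (SD, n = 5) in Vil-Cre and 8.77 ± 5.56 (SD, n = 5) in Vil-Cre:NDI1 jejunum, a log2 fold change of -1.29 (SE 0.98, 95% interval -3.45 to 0.87, limma p = 0.216, adjusted p = 0.998, exact permutation p = 0.31), and without Vil-Cre 5 it was -0.25. DESeq2 and edgeR on recovered reads gave -3.24 and -3.23. The edgeR adjusted p was 0.997, and DESeq2 gave H2-Ob no adjusted p, with or without Vil-Cre 3 and 4.

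H2-DMb2 was at 10.28, 27.4, 4.01, 10.11 and 193 normalized counts in Vil-Cre mice 1 to 5 and 14.7, 7.29, 14.5, 6.86 and 7.04 in Vil-Cre:NDI1 mice 1 to 5. Vil-Cre 5 was 7.06 times the highest of the other 9 mice, and Vil-Cre 2 came second. Its log2 fold change was -0.95 (SE 0.81, limma adjusted p = 0.998), and -0.14 without Vil-Cre 5. On recovered reads it was -2.28 with DESeq2 and -2.29 with edgeR. DESeq2 without Vil-Cre 3 and 4, which keeps Vil-Cre 5, called it at -2.93 (adjusted p = 0.0135). H2-DMb2 shares 10.28% of its 100-base windows with H2-DMb1, and the ratio of the 2 genes ranged from 0.0110 in Vil-Cre:NDI1 4 to 0.299 in Vil-Cre 5.

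H2-Oa, the alpha chain of H2-O, and H2-Eb2, a second H2-E beta chain, did not pass the filter. H2-Oa was at 2.80, 3.28, 5.01, 4.04 and 43.7 normalized counts in Vil-Cre mice 1 to 5 and 4.90, 0.911, 0.968, 1.96 and 1.17 in Vil-Cre:NDI1 mice 1 to 5. H2-Eb2 was at 1.87, 3.28, 4.01, 0 and 116 normalized counts in Vil-Cre mice 1 to 5 and 5.88, 0, 1.94, 0.979 and 1.17 in Vil-Cre:NDI1 mice 1 to 5. Outside Vil-Cre 5 both stayed at no more than 5.88 normalized counts, and the Vil-Cre 5 value was 8.72 times the highest other value for H2-Oa and 19.7 times for H2-Eb2. Exons of BC051537 on the opposite strand overlap 22.8% of H2-Oa.

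The same mouse carried B cell transcripts. Pax5, a transcription factor of B cells, was at 0.934, 1.09, 0, 3.03 and 624 normalized counts in Vil-Cre mice 1 to 5 and 0.980, 0.911, 0.968, 12.7 and 1.17 in Vil-Cre:NDI1 mice 1 to 5. Ms4a1, which encodes CD20, was at 4.67, 0, 1.00, 6.07 and 236 normalized counts in Vil-Cre mice 1 to 5 and 5.88, 0.911, 3.87, 7.83 and 1.17 in Vil-Cre:NDI1 mice 1 to 5. In both the other 9 mice stayed at or below 12.7 normalized counts. Cr2 and Fcer2a, receptors of mature B cells, were at 132 and 104 in Vil-Cre 5 and at 0 in 6 of the other 9 mice each. All 7 B cell markers on the list were highest in Vil-Cre 5, as were 18 of the 37 members tested, among them Ciita, Nlrc5, Tap1, Psmb8, Psmb9, Cd1d1 and H2-M3. Of the 11 enterocyte markers, Lct, Fabp1 and Apoa4 were lowest in that mouse at 6088, 3735 and 48578, as were Apoa1, Alpi, Sis and Anpep. Vil1, Epcam, Fabp2 and Krt20 were lowest in other mice. T cell markers summed to 1116 there, the lowest of the 5 Vil-Cre mice. H2-Ab1 and Cd74 were both higher in Vil-Cre:NDI1 4 than in Vil-Cre 5. B cell markers summed to 65.6 in Vil-Cre:NDI1 4, within the 20.3 to 95.1 of the mice other than Vil-Cre 5. The part of B cells in the member values of either mouse was not tested.

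**Figure D4:**
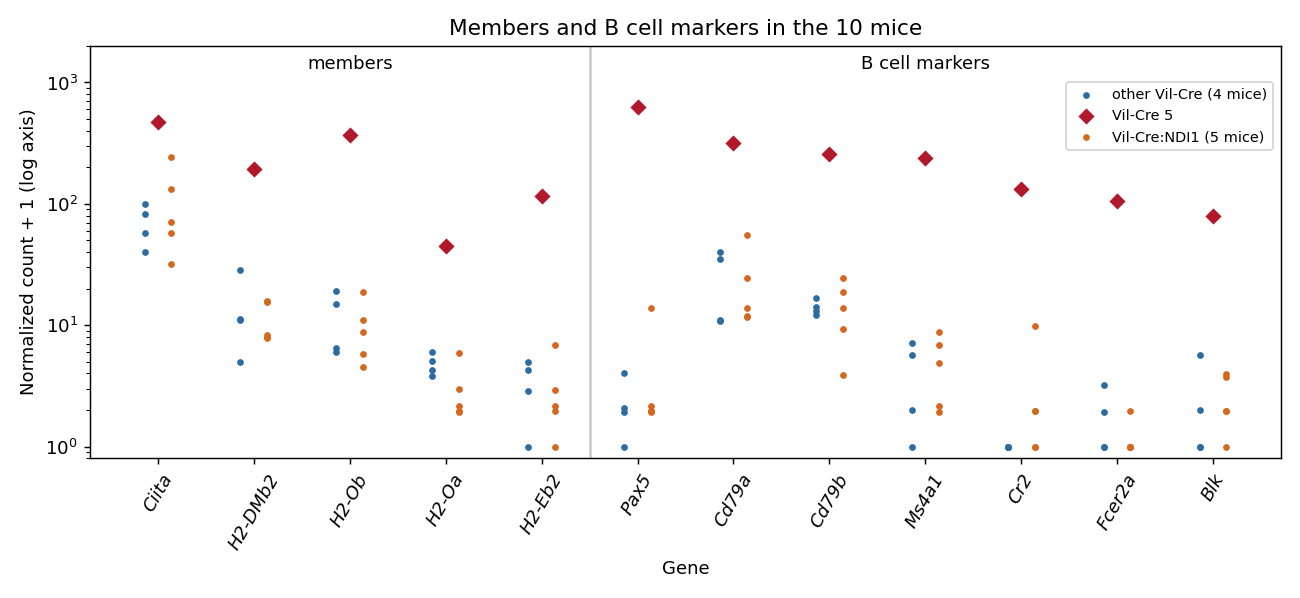
Normalized count + 1 on a log axis for 5 members (left) and 7 B cell markers (right), with 1 point per mouse, Vil-Cre 5 drawn as a large diamond and the other mice by genotype. Vil-Cre 5 lies above all 9 other mice for each of the 12 genes, and for Ciita the other mice reach 242.

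Of the transactivators, Ciita (ENSMUSG00000022504, chr16:10480059-10528418) was at 56.1, 80.98, 39.1, 98.1 and 469 normalized counts in Vil-Cre mice 1 to 5 and 69.6, 30.98, 133, 242 and 56.3 in Vil-Cre:NDI1 mice 1 to 5. Nlrc5 (ENSMUSG00000074151, chr8:94434356-94527272) was at 68.2, 139, 41.1, 111 and 262 normalized counts in Vil-Cre mice 1 to 5 and 97.04, 47.4, 90.05, 198 and 82.2 in Vil-Cre:NDI1 mice 1 to 5. Ciita was lowest in Vil-Cre:NDI1 2 and Nlrc5 in Vil-Cre 3, and both were highest in Vil-Cre 5 with Vil-Cre:NDI1 4 next, so the groups overlapped. Ciita averaged 149 ± 181 (SD, n = 5) in Vil-Cre and 106 ± 84.6 (SD, n = 5) in Vil-Cre:NDI1 jejunum, a log2 fold change of -0.21 (SE 0.67, 95% interval -1.68 to 1.26, limma p = 0.759, adjusted p = 0.998, exact permutation p = 0.778). Nlrc5 averaged 124 ± 85.9 (SD, n = 5) in Vil-Cre and 103 ± 56.4 (SD, n = 5) in Vil-Cre:NDI1 jejunum, a log2 fold change of -0.15 (SE 0.48, 95% interval -1.19 to 0.89, limma p = 0.757, adjusted p = 0.998, exact permutation p = 0.778). Without Vil-Cre 5 these fold changes were 0.36 and 0.18 on the log2 scale, the opposite sign.

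Ciita followed its class II targets across mice. Its r with H2-Ab1 was 0.85 (permutation p = 0.00152, adjusted over 12 pairs p = 0.00528, rho = 0.85, permutation p = 0.00308) and with Cd74 0.85 (permutation p = 0.00176, adjusted p = 0.00528, rho = 0.85, permutation p = 0.00286). Without the 2 mice farthest from the median of Ciita, Vil-Cre 5 and Vil-Cre:NDI1 4, r was 0.82 for both, and without Vil-Cre 5 alone it was 0.89 for both. Without Vil-Cre 5 and the 2 mice then farthest from the median, Vil-Cre:NDI1 2 and Vil-Cre:NDI1 4, r was 0.69 with H2-Ab1 and 0.70 with Cd74. The part of B cells in this relation was not tested.

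The relations of Nlrc5 with class I genes did not pass. With H2-K1 its r was -0.13 (permutation p = 0.713, adjusted p = 0.778, rho = -0.18). It was 0.47 with Tap1 (permutation p = 0.168, adjusted p = 0.224, rho = 0.52) and 0.51 with Psmb9 (permutation p = 0.135, adjusted p = 0.203, rho = 0.58). Without the 2 mice farthest from the median of Nlrc5, Vil-Cre 3 and Vil-Cre 5, these 3 r values were 0.19, 0.22 and 0.25.

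**Figure D5:**
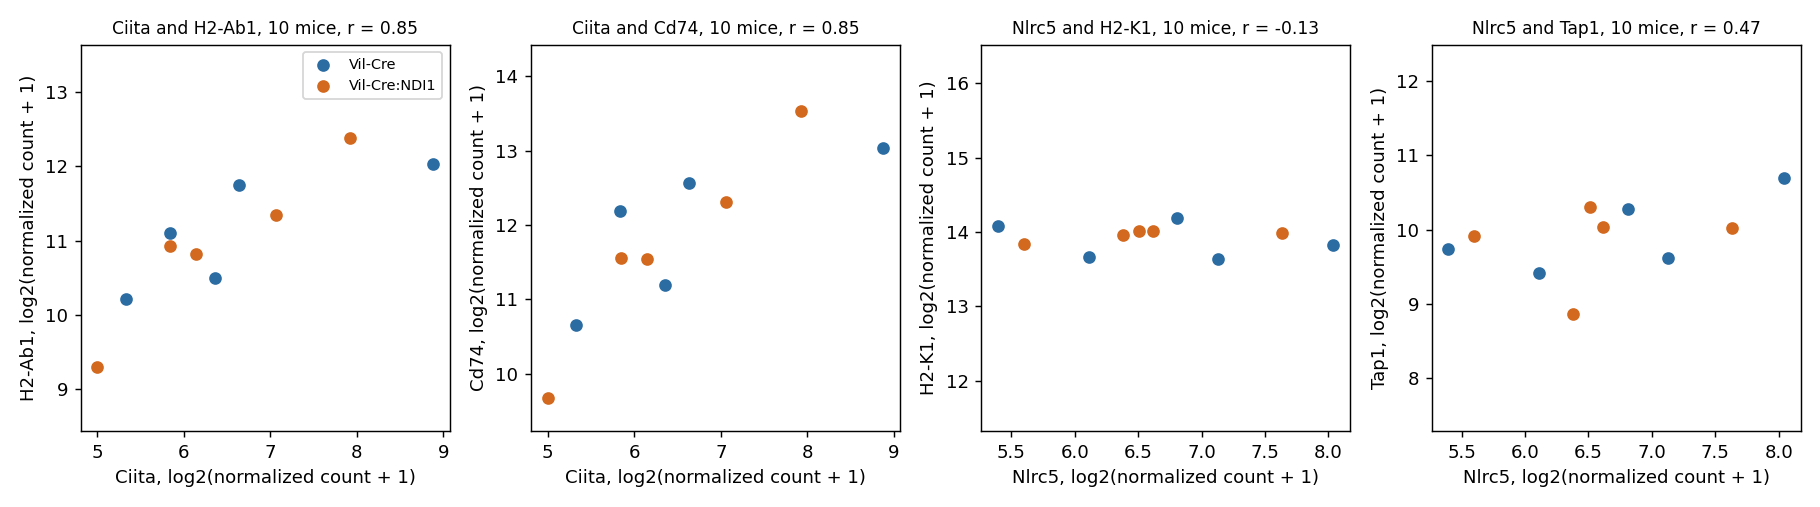
Log2(normalized count + 1) of a target gene against its transactivator in the 10 mice, coloured by genotype, with a vertical axis of equal span in the 4 panels. H2-Ab1 and Cd74 climb with Ciita (r = 0.85 for both), H2-K1 is level over the whole range of Nlrc5 (r = -0.13), and Tap1 scatters (r = 0.47).

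Other genes of the pathway were read from lists. Of 16 tested genes of antigen processing and loading outside the members, 0 passed the threshold and 0 were at an unadjusted p under 0.05. The 3 with the smallest p were Ctsl, a lysosomal protease, at a log2 fold change of -0.26 (SE 0.15, limma adjusted p = 0.998), Ctss, the cathepsin that trims the invariant chain, at 0.13 (SE 0.08, limma adjusted p = 0.998), and Psme2, a proteasome activator, at 0.20 (SE 0.15, limma adjusted p = 0.998). The constitutive proteasome subunits gave 0.10 (SE 0.07, limma adjusted p = 0.998) for Psmb6, 0.09 (SE 0.11, limma adjusted p = 0.998) for Psmb7 and 0.05 (SE 0.07, limma adjusted p = 0.998) for Psmb5. Ctss kept within 1091 to 1454 normalized counts in all 10 mice, in contrast to the class II chains that it serves.

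Of 7 factors that bind MHC promoters, all were tested and 0 passed. The smallest p values belonged to Creb1 at 0.18 (SE 0.13, limma adjusted p = 0.998), Nfyb at 0.15 (SE 0.12, limma adjusted p = 0.998) and Rfxank at 0.13 (SE 0.13, limma adjusted p = 0.998). Rfx5, the DNA-binding part of the RFX complex, averaged 102 and 82.02 normalized counts in Vil-Cre and Vil-Cre:NDI1 jejunum. Of 9 genes of interferon gamma signalling 8 were tested and 0 passed, with Jak2 at 0.12 (SE 0.07, limma adjusted p = 0.998), Irf1 at -0.20 (SE 0.19, limma adjusted p = 0.998) and Ifngr1 at -0.09 (SE 0.10, limma adjusted p = 0.998). Ifng itself was at or below 1.94 normalized counts in every mouse, which is no more than 2 reads.

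The remaining members were not tested or have another function. H2-M2, H2-M5, H2-M9, H2-M10.1 and H2-M10.6 had reads but did not pass the filter, and H2-M2 reached 27.2 in Vil-Cre 5. A further 8 members were at 0 in all libraries: H2-Pa and H2-Pb (both annotated as unprocessed pseudogenes), H2-M1, H2-M11, H2-M10.2, H2-M10.3, H2-M10.4 and H2-M10.5. For these the floor of 3 reads per library is the upper limit, and a low level cannot be told from none at this depth. H2-Ke6 lies among the MHC genes but encodes a steroid dehydrogenase. It was at 285, 264, 381, 232 and 293 normalized counts in Vil-Cre mice 1 to 5 and 288, 319.8, 297, 296 and 296 in Vil-Cre:NDI1 mice 1 to 5. Vil-Cre 3 was the highest and Vil-Cre 4 the lowest, and all 5 Vil-Cre:NDI1 values lay between them. Its log2 fold change was 0.06 (SE 0.12, 95% interval -0.21 to 0.33, limma p = 0.636, adjusted p = 0.998, exact permutation p = 0.643), and 61.6% of its 100-base windows are shared with Gm20427, so part of its reads could belong there.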

How the data were processed

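Whole jejunum was sequenced in 10 mice, 5 per genotype, with a single library each. According to the methods, trimGalore! trimmed the reads, STAR placed them on GRCm38 plus NDI1 and Salmon gave gene counts. What the authors deposited is a signal, normalized counts, whose values are whole reads divided by 1 factor per library. How that factor was derived is not given in the sources used here. The build is also named in the submitters' processing notes. Strandedness is not given in the sources used here. The number of per-sample columns left unused was 0. All 52 members matched GENCODE M21, which gave positions and exon lengths.

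A gene was tested if 5 or more libraries reached 10. The test was limma 3.58.1 (R 4.3.3), with a variance trend, applied to log2(value + 1), with Benjamini-Hochberg adjustment over all 14301 genes and a threshold of 0.05. With the added pseudocount a fold change understates that of low genes. Exact permutation tests were two-sided over all 252 assignments, with a smallest possible p of 0.00794. The 12 gene pairs were tested with two-sided permutation tests of 100000 resamples, exact for 9 mice, and p-values were adjusted over all 12. Of these pairs 2, and 2 genes of the lists, are not reported here. In every library 100% of the values above 0 were whole multiples of its smallest value, within a tolerance of 0.01, so count tests (edgeR 4.0.16, DESeq2 1.42.0) served as alternatives. That value was nearest to 1 in Vil-Cre 3 and 4, and both tests were also run on the other 8 libraries. Vil-Cre 3 and 4 passed the same check of whole multiples. The fits were tested on simulated reads. Reads per library, 10145705 to 12371530, limit the low genes, and the floor of 3 reads for a count of 0 covers counting error only.

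Genes named with full statistics are the 2 highest per kilobase of exon in each role, the 5 with the smallest p, both transactivators and any member called. Of the other lists, the 3 with the smallest p are named. H2-DMb2, H2-Oa and H2-Eb2 and the single B cell and enterocyte markers were added after their values were seen. The members, pairs and lists were chosen with earlier results of these data known.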

Additional observations from a re-analysis of the deposited data

Results flagged for a closer look

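In 80 groups of 5 mice, Dixon's test at a critical value of 0.71 marked 11 values that lay apart from the other 4 mice of their genotype. A chance number of 4, or 1 in 20 groups, holds only for independent groups of normally distributed values. These genes vary together, and H2-Oa and H2-Eb2 reached 10 normalized counts only in Vil-Cre 5. The number marked is therefore a description and is not set against chance. Vil-Cre 5 held 6 of the 11 values, all high. There Ciita was at 469 normalized counts (39.1 to 98.1 in its 4 group mates), H2-Ob at 371 against 5.01 to 18.2, H2-DMb2 at 193 against 4.01 to 27.4, H2-Eb2 at 116 against 0 to 4.01, H2-Oa at 43.7 against 2.80 to 5.01 and H2-M2 at 27.2 against 3.28 to 9.10. The B cell markers moved with these values and their part was not tested.

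Vil-Cre:NDI1 4 held 3 values. H2-Aa was at 3500 normalized counts, above the 248 to 1169 of its group mates. H2-T3 was at 1849, below 2317 to 2453, and H2-Q2 was at 7109, below 9596 to 10611. The remaining 2 were H2-Oa at 4.90 in Vil-Cre:NDI1 1, above 0.911 to 1.96, and H2-Ke6 at 319.8 in Vil-Cre:NDI1 2, above 288 to 297.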

How the results depend on the processing

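No member passed the threshold in limma under any alternative: pseudocounts of 0.1 and 8, no filter on low values, equal library totals, the replicate block and each of the 10 fits without 1 library. DESeq2 without Vil-Cre 3 and 4, added after seeing the data, called 2 members (H2-DMb2 at -2.93 and B2m at 0.31) among 276 genes, where edgeR called 0 members and 1 gene. On all 10 libraries DESeq2 called 31 genes and edgeR 1. Mice that share a number did not all deviate together (correlations of -0.12 to 0.14). The labels state no pairing, and these values cannot exclude one with small effects. With the replicate block 0 members and 1 gene passed, and the median log2 fold change of the members was -0.086. That median was -0.13 with equal totals, where the median of all genes was -0.057 and H2-Ob did not pass the filter. It ranged from -0.15 to 0.068 over the fits without 1 library, above 0 without Vil-Cre 5 (0.068), Vil-Cre:NDI1 2 (0.040) or Vil-Cre:NDI1 5 (0.017). Members at an unadjusted p under 0.05 numbered 0 to 8. The highest number came without Vil-Cre 3 and 4, with 8 of 44 members in DESeq2, beside 8.07% of all genes, and 8 of 37 in edgeR, beside 8.74%.

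The log2 fold changes that turned sign were of members not called there, and the cause was not tested. With DESeq2 on recovered reads they were 0.21 for H2-Aa, 0.042 for Cd74, -0.062 for H2-M3 and -0.013 for H2-T3. With edgeR they were 0.20 for H2-Aa, 0.029 for Cd74, -0.076 for H2-M3 and -0.022 for H2-T3. Without Vil-Cre 3 and 4 DESeq2 gave 0.020 for Tap2, 0.0041 for H2-Aa, -0.11 for H2-M3, 0.053 for H2-Q4, -0.25 for H2-Q5 and -0.0087 for H2-Q3, and edgeR gave 0.0010 for Tap2, -0.13 for H2-M3, 0.033 for H2-Q4, -0.26 for H2-Q5 and -0.024 for H2-Q3. With equal totals they were -0.023 for H2-D1, -0.035 for Tapbp, -0.010 for H2-Q3, -0.0048 for H2-T23, -0.039 for H2-T3, -0.035 for H2-T22 and -0.0023 for H2-Ke6.

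Over the fits without 1 library each, log2 fold changes that turned sign ranged from -0.66 to 0.31 for Cd74, -0.59 to 0.36 for Ciita, -0.49 to 0.46 for H2-Aa, -0.51 to 0.25 for H2-Ab1, -0.010 to 0.075 for H2-D1, -0.39 to 0.13 for H2-DMa, -0.58 to 0.21 for H2-DMb1, -0.50 to 0.16 for H2-Eb1, -0.017 to 0.16 for H2-Ke6, -0.20 to 0.43 for H2-M3, -0.32 to 0.042 for H2-Q10, -0.14 to 0.23 for H2-Q3, -0.19 to 0.032 for H2-Q4, -0.22 to 0.37 for H2-Q5, -0.36 to 0.0038 for H2-Q6, -0.059 to 0.096 for H2-T22, -0.11 to 0.16 for H2-T24, -0.075 to 0.17 for H2-T3, -0.48 to 0.18 for Nlrc5, -0.097 to 0.056 for Psmb10, -0.28 to 0.0065 for Psmb8, -0.27 to 0.099 for Psmb9, -0.25 to 0.12 for Tap1, -0.21 to 0.022 for Tap2 and from -0.058 to 0.11 for Tapbp.

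Of the 10 correlations given, those of Nlrc5 with H2-K1 and of Vil1 with H2-Ab1 had the opposite sign with equal totals, 0.036 and 0.058, and that of Vil1 with H2-Ab1 was 0.15 without Vil-Cre 5, a setting added for the correlations after seeing the data. The other correlations kept their sign and their side of the threshold. Depth limits the members under about 10 normalized counts.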

Other observations

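In Vil-Cre:NDI1 4 H2-Aa, H2-Ab1, H2-Eb1 and Cd74 were the highest of the Vil-Cre:NDI1 mice while H2-Q2, H2-Q1 and H2-T3 were the lowest of that genotype. In Vil-Cre 5, the other mouse with high class II genes, H2-Q2, H2-Q1 and H2-T3 were the lowest of all 10 mice, at 6369, 1647 and 1681 normalized counts. These values were noticed after the data were seen, rest on 2 mice and were not tested.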
